A study of Mus musculus with 4 samples.

Results

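The small RNAs bound to MILI (Piwil2) are described here at 6 imprinted genes: the protein-coding genes Peg3 and Rasgrf1 and the noncoding RNAs H19, Meg3, Kcnq1ot1 and Airn. A listed sequence was taken for a gene where the whole sequence matched, in sense or antisense, a transcript of that gene in GENCODE release M21 and of no other gene. This gave 1070 sequences, 0.0218% of the 4906138 in the list, for 6 of the 55450 genes searched. MILI was immunoprecipitated from testes taken 14 days after birth, in 2 libraries labelled Tdrd9-/- and 2 labelled Tdrd9+/-, all from C57BL/6 animals. TDRD9 is a helicase of the piRNA pathway, and the Tdrd9+/- animals keep 1 intact copy of its gene. Per the labels' protocols, the bound RNAs were cut from a gel at roughly 28 to 30 nt. The deposited table is 1 list for all 4 libraries that names none of them, and it gives each distinct sequence with its mm9 position and no read count. The depth per library is therefore unknown, Tdrd9-/- and Tdrd9+/- were not compared, and each value below is a count of distinct sequences or distinct 5′ ends in the pooled list. Intervals cover counting error over distinct ends only, and ends of 1 transcript share their source.

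An imprinted gene is expressed from the maternal or the paternal copy only, according to a DNA methylation mark that differs between egg and sperm. In the male germ line the inherited marks are erased and new ones are laid down before birth, at the time when the PIWI proteins MILI and MIWI2 and their piRNAs direct methylation of retrotransposons. The methylation mark near Rasgrf1 is known in mice to need the piRNA pathway in fetal germ cells. The marks that govern H19, Meg3 and Rasgrf1 are laid down in sperm, and those that govern Peg3, Kcnq1ot1 and Airn in eggs. MILI is also loaded after birth with piRNAs cut from ordinary messenger RNAs.

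The sequences below show what such a MILI-bound RNA looks like at each gene: a sense 5′ end with the most listed sequences, as the longest of them of at most 30 nt. Peg3 and H19 each had 2 such ends with equal numbers and Airn 5, and the one nearest the start of the gene is shown. Capitals mark the first base, which is U in most piRNAs and written T as in the deposited table, and base 10, which is often A in piRNAs made by slicing. Positions are mm9.
Peg3, chr7:6661336-6661364, minus strand: TgagaccaaGgagaaattgcactgttgaa
Rasgrf1, chr9:89807224-89807251, plus strand: TggtagaacTtcattttcaaggggcttc
H19, chr7:149763335-149763363, minus strand: TgggatccaGcaagaacagaagcattcta
Meg3, chr12:110809242-110809270, plus strand: TgagatacaAgaccaggaagactattaag
Kcnq1ot1, chr7:150466281-150466308, minus strand: TaggactccTtctggatgcatgggcaag
Airn, chr17:12972165-12972193, plus strand: TgaagagatGtgaacaaaggcctgctcgt
Each of the 6 shown begins with T, and the Meg3 sequence has A at base 10. The Peg3 end carried 5 listed sequences of 25 to 29 nt, and the H19 end carried 6 of 24 to 29 nt. The Kcnq1ot1 end carried 4, the Rasgrf1 and Meg3 ends 3 each, and the 5 Airn ends 1 each.

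Peg3, a paternally expressed zinc finger transcription factor, had the most sense sequences of the 6 genes, 353 at 259 distinct 5′ ends (ENSMUSG00000002265.16, chromosome 7, minus strand, 6656675–6683132). Kcnq1ot1, the long antisense RNA that silences neighbouring genes on the paternal chromosome, had 322 at 279 ends (ENSMUSG00000101609.2, chromosome 7, minus strand, 150389436–150482345). H19, a maternally expressed RNA beside the growth factor gene Igf2, had 154 at 85 ends (ENSMUSG00000000031.16, chromosome 7, minus strand, 149761611–149764013). Meg3, a maternally expressed RNA of the Dlk1 to Dio3 domain, had 42 at 39 ends (ENSMUSG00000021268.17, chromosome 12, plus strand, 110781964–110809671). Rasgrf1, an exchange factor that activates Ras, had 39 at 30 ends (ENSMUSG00000032356.12, chromosome 9, plus strand, 89804808–89921604). Airn, the paternally expressed antisense RNA that silences Igf2r, had 5 at 5 ends of its annotated spliced transcripts (ENSMUSG00000078247.4, chromosome 17, plus strand, 12972165–13052538). All sense and antisense sequences of these genes lay on the chromosome of their gene. Both coding members had 10 or more sense sequences, as had 56.3% of 21951 protein-coding genes. So had 3 of the 4 noncoding members, against 10.5% of 13374 noncoding genes. These shares take no account of length, and the longest transcripts of Kcnq1ot1 and Meg3 have 93092 and 14548 nt. Genes of the same type within 10% of that length numbered 0 and 1.

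**Figure D1:**
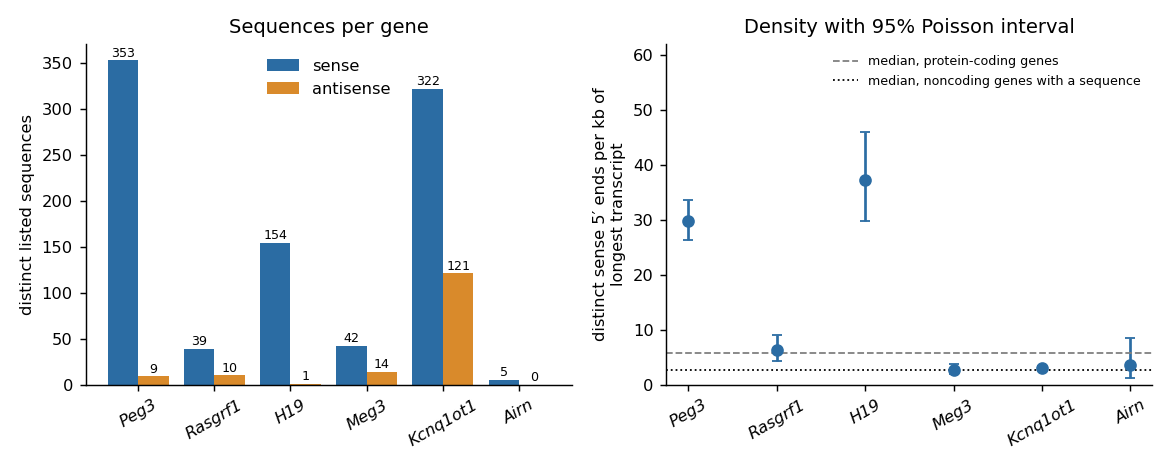
Left, distinct listed sequences per gene in sense and antisense, in counts. Right, density of distinct sense 5′ ends, per kb of longest transcript, with exact 95% Poisson intervals, and the medians of protein-coding genes (dashed) and of noncoding genes with a sequence (dotted). H19 and Peg3 stand at 37.2 and 29.8 ends per kb and the other 4 genes between 2.68 and 6.29.

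Per length of the longest transcript, H19 was the densest member and Peg3 followed. H19 had 37.2 distinct sense ends per kb (95% Poisson interval 29.7–46.0), which ranked 167th among 13374 noncoding genes. Peg3 had 29.8 ends per kb (26.3–33.6), with 17.8% of 21951 protein-coding genes above it. The H19 and Peg3 intervals overlap on this scale. Rasgrf1 had 6.29 ends per kb (4.25–8.99), near the median of protein-coding genes, 5.74. Airn, Kcnq1ot1 and Meg3 had 3.64 (1.18–8.49), 2.997 (2.66–3.37) and 2.68 (1.91–3.66) ends per kb, and these 3 intervals overlap. For Airn the value only scales its 5 ends, since they lie on shorter Airn transcripts and none on the 1375-nt transcript used as the length. The median noncoding gene with at least 1 sense sequence had 2.66. Over all 13374 noncoding genes the median was 0, and the protein-coding median above likewise counts genes without a sequence. Of all noncoding genes 14.4% lay above Airn, 16.1% above Kcnq1ot1 and 17.3% above Meg3. The median of the 6 members was 4.97 ends per kb. Genes marked in sperm lay at 37.2, 6.29 and 2.68 ends per kb for H19, Rasgrf1 and Meg3, and genes marked in eggs at 29.8, 2.997 and 3.64 for Peg3, Kcnq1ot1 and Airn, so the ranges of the classes overlapped. The length used matters for this order. With all transcripts of a gene joined, H19 had 33.3 ends per kb (26.6–41.2) and Peg3 19.5 (17.2–22.01), and these intervals do not overlap. On that scale the other 4 were 3.01 for Kcnq1ot1, 2.72 for Rasgrf1, 2.14 for Meg3 and 1.38 for Airn, with intervals that overlap. Among genes of the same type and a longest transcript within 10% of the member's length, the nearest in density were Zfp618 and Zfp638 for Peg3 (29.8 and 29.7 ends per kb), Grm4 and Caskin2 for Rasgrf1 (6.29 each), BC043934 and 4930552P12Rik for H19 (37.4 and 36.1), and BC039966 and Gm12359 for Airn (3.65 and 3.57). This likeness is of 1 pooled value, not of a pattern over samples.

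The members' sequences kept to a narrow range of lengths and mostly began with U. Mean lengths lay between 26.5 nt for Meg3 (SD 0.968 nt over sequences) and 27.4 nt for Airn (SD 1.14 nt). From 75.3% of sequences in H19 to 83.3% in Meg3 were of 26 to 28 nt. The size cut from the gel applied to the RNAs of all genes, and these lengths were not compared with the whole list. In Peg3, 69.9% of the 259 ends began with U (exact Clopper-Pearson 95% interval 63.9–75.4%), against a U content of 23.98% in its longest transcript. Kcnq1ot1 had 79.6% of 279 ends (74.4–84.1%), against a U content of 26.4%. Rasgrf1 had 93.3% of 30 ends (77.9–99.2%), against 23.2%, and Meg3 had 89.7% of 39 ends (75.8–97.1%), against 26.1%. H19 was lowest, with 54.1% of 85 ends (43.0–65.0%), against 20.8%. In Airn 4 of 5 ends began with U (28.4–99.5%), against 24.7%. All 6 shares lay above the U content, with adjusted p from 8.8e-75 for Kcnq1ot1 to 0.022 for Airn (two-sided exact binomial test, Benjamini-Hochberg over 22982 genes). The same call was made for 70.2% of the 22982 genes tested, and the opposite call for 0.00435%, so a share above the U content is no mark of these 6.

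**Figure D2:**
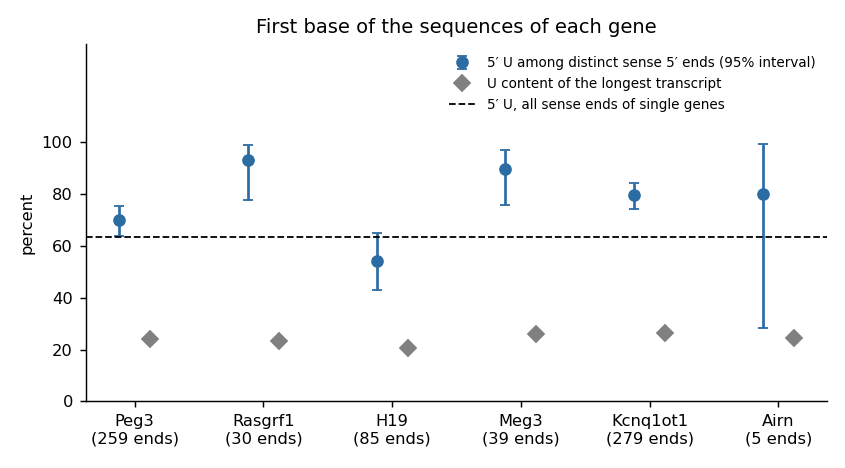
Share of distinct sense 5′ ends that begin with U for each gene (circles, exact 95% intervals, in percent) beside the U content of its longest transcript (diamonds). The dashed line is the share over all sense ends of single genes, 63.4%; Peg3, Rasgrf1, Meg3 and Kcnq1ot1 lie above it with their whole interval, and the interval of Peg3 starts just above it, at 63.9%.

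Set against the ends of all other genes, 3 members had more 5′ U. Kcnq1ot1 was 16.2 percentage points above the rest (adjusted p = 1.3e-06, two-sided Fisher's exact test, Benjamini-Hochberg over 22982 genes), Meg3 26.3 points (adjusted p = 0.0089) and Rasgrf1 29.9 points (adjusted p = 0.0099). The share over all sense ends of single genes was 63.4% (63.3–63.5%). A higher share by this test was found for 3.97% of all genes and a lower one for 3.43%. By the same Fisher's exact test Peg3 differed by 6.47 points (adjusted p = 0.22), Airn by 16.6 points (adjusted p = 0.99) and H19 by -9.30 points (adjusted p = 0.40), and none of these 3 passed. Noncoding genes as a class had 70.7% 5′ U and protein-coding genes 63.0%. Against noncoding genes only, Kcnq1ot1 and Meg3 no longer passed Fisher's exact test (adjusted p = 0.10 and 0.37), and Rasgrf1 against protein-coding genes did (adjusted p = 0.0047).

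Over distinct ends, A at position 10 was not called in any member. The shares were 33.6% in Peg3 (27.9–39.7%), 36.7% in Rasgrf1 (19.9–56.1%), 30.6% in H19 (21.05–41.5%), 28.2% in Meg3 (15.001–44.9%) and 30.8% in Kcnq1ot1 (25.5–36.6%), and in Airn 1 of 5 ends had it (0.505–71.6%). The A contents of the longest transcripts ran from 23.4% in H19 to 33.3% in Kcnq1ot1. No member passed the exact binomial test, with the lowest adjusted p at 0.56 in H19. Counted over its 154 distinct sequences, H19 had 34.4% (adjusted p = 0.026, exact binomial test). Those sequences share 85 ends, and sequences of the same end share base 10. They are not separate draws, so this p-value is too small. A share above the A content was called over ends for 2.17% of all genes. Pairs of opposite-strand 5′ ends overlapping by 10 nt, the mark left by slicing, numbered 0 in each of the 6 loci. Other overlaps of 1 to 20 nt gave 15 pairs in Kcnq1ot1, 5 in Airn, 3 in Peg3 and 0 in Rasgrf1, H19 and Meg3. The strand opposite the gene held 87 ends at Kcnq1ot1, 53 at Airn, 24 at Rasgrf1, 22 at Meg3, 15 at Peg3 and 1 at H19. With so few ends hardly any pair could form, so the counts of 0 are no measure of slicing.

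Within Peg3 the sequences came mainly from the coding sequence. The coding sequence of 4716 nt held 210 ends, or 44.5 per kb, the 3′ UTR of 3614 nt held 41, or 11.3 per kb, and the 5′ UTR of 364 nt held 1. The 3′ UTR thus held 16.3% of the ends in both regions (11.98–21.5%) on 43.4% of the nucleotides, a density 0.255 times that of the coding sequence (adjusted p = 4.0e-18, two-sided exact binomial test, Benjamini-Hochberg over 14309 genes). A sparser 3′ UTR was called for 19.6% of these genes and a denser one for 11.4%, and the median density ratio was 0.663. The Peg3 sequence printed above lies in the coding sequence, at base 3933 of the 8694-nt transcript. Peg3 antisense sequences numbered 9, all at different ends.

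The sequences matched to Rasgrf1 transcripts gathered near the start of the gene. The first 10 kb from the first matched base held 35 of the 39 sense sequences and all 10 antisense ones, and the following 110 kb held 4 sense sequences. Sequences without a transcript match were less gathered. The first 10 kb held 7 of them on the plus strand and 4 on the minus strand, and the following 110 kb held 13 and 10. Annotated forms of the gene differ in what they hold: the transcript with the longest coding sequence (4092 nt) had 6 ends, all coding, whereas the 4766-nt transcript, with a coding sequence of 462 nt and a 3′ UTR of 4214 nt, had 26 ends, of which 24 were in the 3′ UTR. Set against its coding part, the 3′ UTR had a relative density of 0 on the 4092-nt form and 1.32 on the 4766-nt form (adjusted p = 1 for both, exact binomial test), so no preference was detectable with these few ends. In the 50 kb before the gene, on the side where its imprinting control region lies, 20 sequences lay on the minus strand and 1 on the plus strand.

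**Figure D3:**
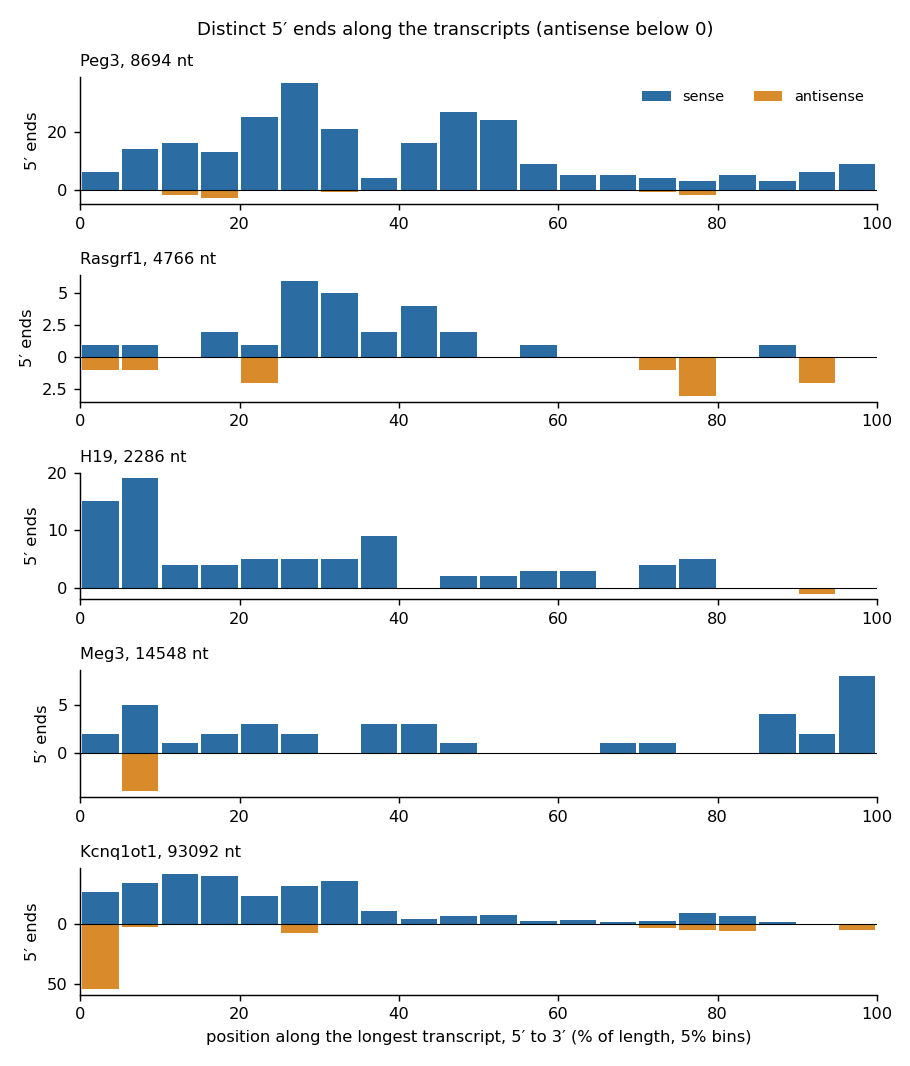
Distinct 5′ ends in 5% bins along the longest transcript of 5 genes, sense above 0 and antisense below, in counts (each panel has its own scale). Peg3 and H19 are filled mainly in the 5′ part. Meg3 has 22 of 38 sense ends spread over its first 50% and 8 in its last bin. Kcnq1ot1 has 248 of 279 sense ends in its first 50% and 54 of 87 antisense ends in its first bin. Airn is not drawn because its longest transcript had 0 ends.

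H19 ends were densest at the start of the 2286-nt transcript, where the first 5% bins held 15 and 19 of the 85 ends, and the last sense end lay at base 1783. Its single antisense sequence lay at base 2109. A further 15 H19 sequences also matched the annotated RNAs Gm27786 (12) and Gm27483 (3) and were left out by the rule. No listed sequence lay in the hairpin of Mir675, the microRNA made from H19, or in that of Mir770 within Meg3. Of 38 Meg3 sense ends on its 14548-nt transcript, 16 lay in the last 50% and 8 in the last 5%, where the sequence printed above starts at base 13854. The 14 Meg3 antisense sequences lay in the first 10 kb of the gene, beside 4 sense ones, whereas the next 20 kb held 44 sense sequences, those also matching Gm26906 included, and 0 antisense ones.

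Kcnq1ot1 was the member with the most antisense sequences, 121 at 87 ends, or 27.3% of its sequences. Per kb of longest transcript it was not the densest, with 0.935 antisense ends, against 2.10 in Rasgrf1 and 1.04 in Peg3. Meg3 had 0.825 antisense ends per kb, H19 0.437 and Airn 0. Antisense shares were 25% in Meg3 and 20.4% in Rasgrf1, and 2.49% in Peg3 and 0.645% in H19. Of the 6 members 3 had 10 or more antisense sequences, against 5.09% of all genes, with no account of length or gene class. The Kcnq1ot1 antisense ends piled up at the start of the transcript, where the promoter and the imprinting control region of the domain lie. The first 2 kb held 54 of the 87 antisense ends, 27 per kb, against 0.362 per kb beyond. Sense ends had 7 per kb in the first 2 kb and 2.91 per kb beyond. The pile went on upstream of the transcript on the same strand: in the 5 kb before the first matched base lay 43 sequences on the plus strand, of which 28 matched no transcript and 15 another gene, and 0 on the minus strand. The 45 kb before those held 55 on the plus strand and 2 on the minus strand. Kcnq1, the potassium channel gene in which Kcnq1ot1 lies, runs on the plus strand and had 6 sense sequences in its annotated exons. Whether the plus-strand sequences come from Kcnq1 introns or from another RNA was not tested. Of the 6 fullest antisense ends, each with 4 sequences, 1 is shown here as an example of this pile, with the first base and base 10 in capitals.
Kcnq1ot1 antisense, chr7:150481353-150481381, plus strand: TtagaatccGaaggcctgagccggtgtcc
This end lies opposite base 1074 of the 93092-nt transcript. Of the antisense ends 71.3% began with U (60.6–80.5%), and the complement of the transcript holds 33.3% U. Sense sequences of Kcnq1ot1 were spread over the first 35 kb of the gene, with 275, and the following 60 kb held 48, the 1 sequence also matching Gm27395 included.

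**Figure D4:**
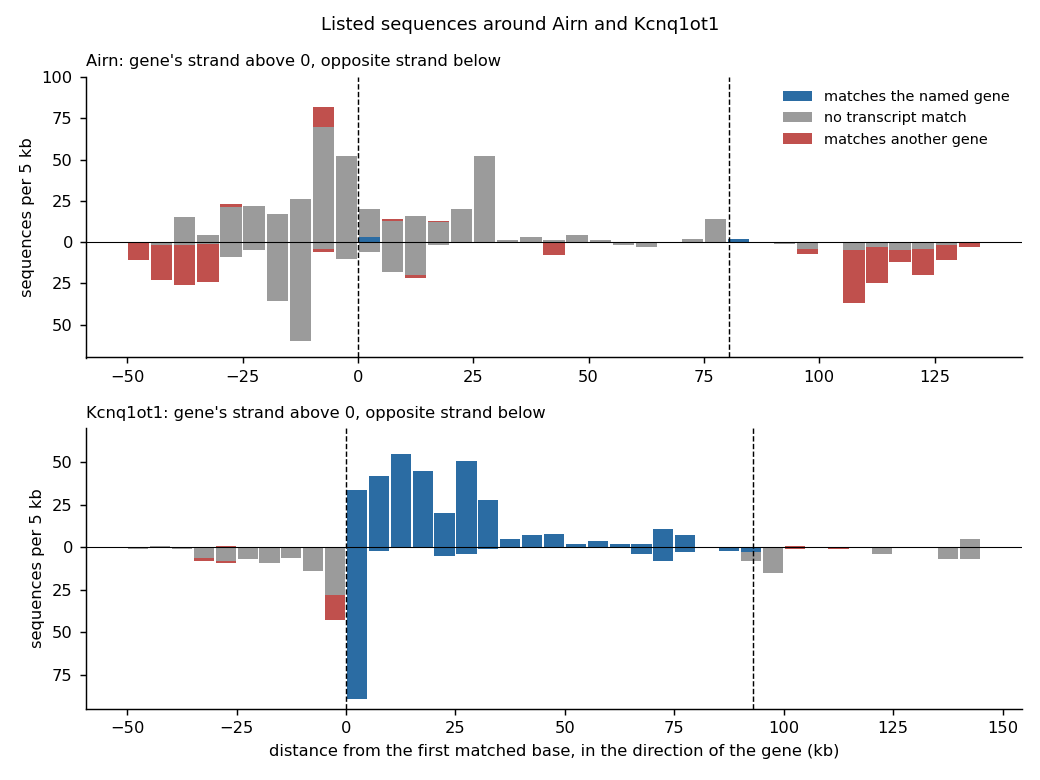
Listed sequences in 5-kb windows around Airn (top) and Kcnq1ot1 (bottom), by distance in kb from the first matched base in the direction of the gene (dashed lines: first and last matched base). Sequences on the gene's strand are above 0 and those on the opposite strand below, in counts. At Airn the sequences on its strand begin before the first match and nearly all match no transcript. At Kcnq1ot1 the opposite strand has 89 sequences in the first 5 kb.

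At Airn most sequences on the gene's strand lay outside its annotated transcripts. The annotated transcripts are spliced and 435 to 1375 nt long, whereas Kcnq1ot1 is annotated as 1 unspliced transcript, so introns are counted for Kcnq1ot1 and not for Airn. Between the first and the last Airn match the plus strand held 163 sequences, of which 5 matched Airn, 156 no transcript and 2 another gene. The plus-strand sequences were taken as a single run that began before the first match and ended with the last. It went from 12934340 to 13052538 on chromosome 17, an extent of 118199 nt. This extent bridges an empty stretch, since the 5-kb windows from 55 to 70 kb after the first match held 0 plus-strand sequences. RefSeq gives the Airn gene a length of 118574 nt on GRCm38, a length only, since positions were not converted. Before the run the plus strand was empty for 113231 nt and after it for 50392 nt. The run held 404 sequences at 336 ends, of which 383 matched no transcript, 5 Airn and 16 another gene. In ends per kb it had 2.84 (2.55–3.16), against 2.997 (2.66–3.37) for Kcnq1ot1, and these intervals overlap. Of its ends 81.5% began with U (76.98–85.6%) and 30.95% had A at position 10 (26.05–36.2%).

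The run was fullest in its first part. The 40 kb before the first annotated match held 241 plus-strand sequences, the next 30 kb held 135 and the last 55 kb held 28. In the 10 kb before these windows and in the 50 kb after them lay 0. On the minus strand the same interval held 212 sequences, 25 of them sense to Igf2r, the growth factor receptor gene that Airn overlaps and silences. Igf2r itself had 273 sense sequences at 22.4 ends per kb. The fullest unmatched end of the plus strand between the Airn matches carried 6 sequences of 24 to 29 nt, with the longest shown here, first base and base 10 in capitals.
Airn span, no transcript match, chr17:13049967-13049995, plus strand: TgatatgtcTgaagagagctgcagtgtat
Whether these sequences are cut from unspliced Airn or from another RNA of the same strand was not tested.

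Unmatched sequences, which would include those from introns, were fewer at the other members. On the gene's strand, within the span of the matches, 20 of 373 sequences at Peg3 matched no transcript, 20 of 59 at Rasgrf1, 3 of 51 at Meg3 and 0 of 169 at H19. All 17 unmatched ends at Peg3 and all 18 at Rasgrf1 began with U (lower limits of the exact intervals 80.5% and 81.5%), and 33.3% of the 3 at Meg3 did (0.840–90.6%).

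Of 64 further imprinted genes, 46 (71.9%) had 10 or more sense sequences, 5 had 0, and the median was 8.04 ends per kb. Among the 56 protein-coding ones, 69.6% had 10 or more and the median density was 9.01 ends per kb, against 56.3% and 5.74 ends per kb over all protein-coding genes. The fullest were Zdbf2 (884 sequences), the signal peptide peptidase gene H13 (872), the polycomb gene Sfmbt2 (755), Ppp1r9a (534) and Zim2 (524). Zim2, a neighbour of Peg3, had 227 ends per kb, and 39.5% of its ends began with U. Usp29, which is transcribed away from the Peg3 promoter, had 111 sequences and 11.1 ends per kb. Igf2, the neighbour of H19, had 15, and Rian and Mirg, the noncoding RNAs that follow Meg3, had 16 and 11. Antisense sequences numbered 10 or more in 8 of the 64, against 5.09% of all genes, with no account of length or gene class. The most were in H13 with 59, the G protein gene Gnas with 37, and Nnat and Phlda2 with 22 each. Kcnq1ot1 had 121, but on a longest transcript of 93092 nt. Those of H13, Gnas, Nnat and Phlda2 have 5204, 3947, 1448 and 757 nt, so the counts give no order of density.

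Markers of testis cell types were counted in the same way. All 7 germ cell markers had 10 or more sense sequences (140 to 452), as had 56.3% of all protein-coding genes. So had 2 of 5 Sertoli markers (0 to 27), 1 of 5 Leydig markers (0 to 247) and 0 of 3 peritubular myoid markers (0 to 5). Of the markers of endothelium, blood and macrophages 2 of 5 had (0 to 32). The highest Leydig marker, at 247, exceeded the germ cell median of 211. Counts of distinct MILI-bound sequences do not measure expression, so they do not check the make-up of the tissue. Which cells gave the sequences of the imprinted genes was not tested. Tdrd9 had 137 sense sequences, which checks no genotype because the libraries are pooled.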

How the data were processed

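Per the file headers, the deposited table gives sequence, chromosome, start, end and strand. Its build is mm9, as the submitters' processing notes name it. How reads were trimmed, filtered and aligned was not given in the sources used. The members and lists were chosen with earlier results of these data known.

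Sequences were compared with 141767 GENCODE M21 transcripts (GRCm38) by exact match in both orientations, and no coordinate was converted. Only sequences of a single gene counted. A 5′ end is a distinct chromosome, strand and 5′ position. Densities divide ends by the longest transcript. Regions come from the transcript with the longest coding sequence and a 3′ UTR of at least 100 nt. Windows were 5 kb, flanks 50 kb. First-base and position-10 shares were tested against the base content of the longest transcript (exact binomial) and against other genes (Fisher), with a threshold of 0.05. P-values were adjusted over all genes with a sense end, in place of the planned adjustment over the 6 members alone. The planned genotype comparison could not be made, since the table has neither counts nor libraries. Named genes were the members, the 5 fullest and 3 most antisense other imprinted genes (a tie added 1), partners of the members and nearest genes in density. Windows and the run at Airn were chosen after their values were seen. Matching, pair counting and the binomial test were tested on simulated data. Printed sequences come from the deposited table, and hairpins and gene length from RefSeq (GRCm38.p6). Matching ran in numba 0.67.0 and tests in scipy 1.17.1, with pandas 2.3.3, numpy 2.4.6, matplotlib 3.10.9 and Python 3.11.15.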

Additional observations from a re-analysis of the deposited data

Results flagged for a closer look

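Listed sequences without any transcript match also lay beside each of the 6 loci, in the 50 kb on each side, which the counts per gene do not use. There were 380 at Airn, 130 at Meg3, 124 at Kcnq1ot1, 96 at H19, 52 at Peg3 and 28 at Rasgrf1. At Airn 227 of them were upstream on the gene's own strand and belong to the run described above. At Meg3 105 were upstream on the opposite strand, 69 of these between 40 and 50 kb before the first match. At Kcnq1ot1 80 were upstream on the opposite strand. No control samples are at hand for these counts, and what they are transcribed from was not tested.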

How the results depend on the processing

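No paired analysis was possible because the pooled table has no columns of samples, and for the same reason no replicate could be left out and no other normalization or count filter was run. Of 52 tested values recomputed under another setting, 47 kept their direction and their side of the threshold. Of 36 values without a test, 32 stayed within 1.5 times the value reported, among them the pair counts of 0. Several settings could hardly change a value, so part of this agreement was fixed in advance. In Peg3, for instance, 352 of 353 sense sequences were of 24 to 31 nt, and 0 ends had a first 20 nt found at another position. Leaving out such sequences or ends kept its 5′ U share at 69.9%. With all transcripts of a gene joined, ends per kb were 19.5 for Peg3, 2.72 for Rasgrf1 and 1.38 for Airn. Counting distinct ends in place of sequences gave 85 for H19. Counting sequences in place of ends brought A at position 10 in H19 to 34.4% (adjusted p = 0.026, exact binomial test). It brought the difference in 5′ U between Peg3 and other genes to 7.49 percentage points (adjusted p = 0.023, Fisher's exact test). Sequences of the same end share their first base and base 10, so they are not separate draws and both p-values are too small. By Fisher's exact test against noncoding genes only, that difference was 19.02 points for Meg3 (adjusted p = 0.37) and 8.84 for Kcnq1ot1 (adjusted p = 0.10). The alternatives of this last test were chosen after seeing the data. On the longest coding transcript, the ratio of 3′ UTR to coding density in Rasgrf1 was 1.32, from 2 coding ends. The causes were not tested. Distinct sequences are not read counts, so abundance is unknown, and Airn and Rasgrf1 rest on 5 and 30 sense ends.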
